A study of Mus musculus with 17 samples.

Results

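Genes for the synthesis of cholesterol and of fatty acids were followed across pancreatic islets of 5 mouse genotypes. The 38 chosen genes comprised 24 of the sterol branch and 14 of the fatty acid branch. The sterol branch held the mevalonate and isoprenoid steps, the steps from squalene to cholesterol, and the SREBP regulators with a sterol carrier. The fatty acid branch held the supply of acetyl-CoA and NADPH, the steps of synthesis, elongation and desaturation, and the acyl-CoA synthetases. A gene was read from the probe set annotated to it alone, and from the brighter of them over all 17 arrays where there were 2. Values were obtained for 36 of the 38 genes, 23 sterol and 13 fatty acid, out of 19938 genes measured in all. Acat2 and Acsl3 were not analysed here.

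Each array held RNA from islets of untreated mice aged 2 months. The 5 groups were wt (3 arrays), RIP-Cre (3), Men1flf RIP-Cre (3), Rbp2flf RIP-Cre (4) and Men1flf Rbp2flf RIP-Cre (4). The last 3 are called the Men1 knockout, the Rbp2 knockout and the double knockout below. All groups except wt carry RIP-Cre, in which the rat insulin promoter drives Cre, so that deletion takes place mainly in beta cells and the other islet cells keep the genes. RIP-Cre was therefore the control of every knockout, and the 3 comparisons with it share its 3 arrays. Men1 encodes menin, an endocrine tumour suppressor that acts with methyltransferases of lysine 4 of histone H3. Rbp2, the older name of Kdm5a, encodes a demethylase of that residue. The labels give repeat numbers and no animals, so the p-values reflect array-to-array spread alone, which may be technical.

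Cells build cholesterol from acetyl-CoA by way of mevalonate, isoprenoids, squalene and lanosterol, and build fatty acids from acetyl-CoA by way of malonyl-CoA, after which chains are lengthened and double bonds added. Many of these genes are targets of the SREBP transcription factors, which Scap escorts out of the endoplasmic reticulum when sterols are scarce and which Insig proteins hold back when sterols are plentiful. In beta cells, cholesterol is a component of insulin granules, and newly made lipids take part in the coupling of glucose use to insulin release.

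Most enzymes of both branches were higher in Men1 knockout islets than in RIP-Cre islets, fewer were higher in Rbp2 knockout islets, and the desaturase Scd1 had the largest change. Levels are log2 intensities as deposited, and a log2 fold change is a difference between group means of them. Calls rest on limma, fitted over all genes, at a Benjamini-Hochberg adjusted p under 0.05. In the Men1 knockout against RIP-Cre 12 of 23 sterol genes and 10 of 13 fatty acid genes rose and none fell, where 53.5% of all genes were called, 15.7% as higher and 37.8% as lower. The median log2 fold change was 0.54 over the sterol genes and 0.83 over the fatty acid genes, beside -0.23 over all genes. All 3 Men1 arrays lay above all 3 RIP-Cre arrays for 13 sterol and 10 fatty acid genes, which 18.7% of all genes did.

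In the Rbp2 knockout against RIP-Cre 6 of 23 sterol genes and 5 of 13 fatty acid genes rose and none fell, where 13.4% of all genes were called, 6.7% as higher. The medians were 0.16 and 0.26, beside -0.13 over all genes. The Rbp2 arrays lay above the RIP-Cre arrays for 10 sterol and 6 fatty acid genes, as they did for 11.6% of all genes. In the double knockout against RIP-Cre 12 sterol and 9 fatty acid genes rose and none fell, where 33.7% of all genes were called, 13% as higher. The medians were 0.33 and 0.59, beside -0.15 over all genes, and 14 sterol and 9 fatty acid genes lay above every RIP-Cre array, against 14.2% of all genes. Against wt, RIP-Cre had 0 calls by limma among the 36 genes, and an unadjusted p under 0.05 for 0 of them, where 0% of all genes were called. The medians of that comparison were 0.10 and 0.09.

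**Figure D1:**
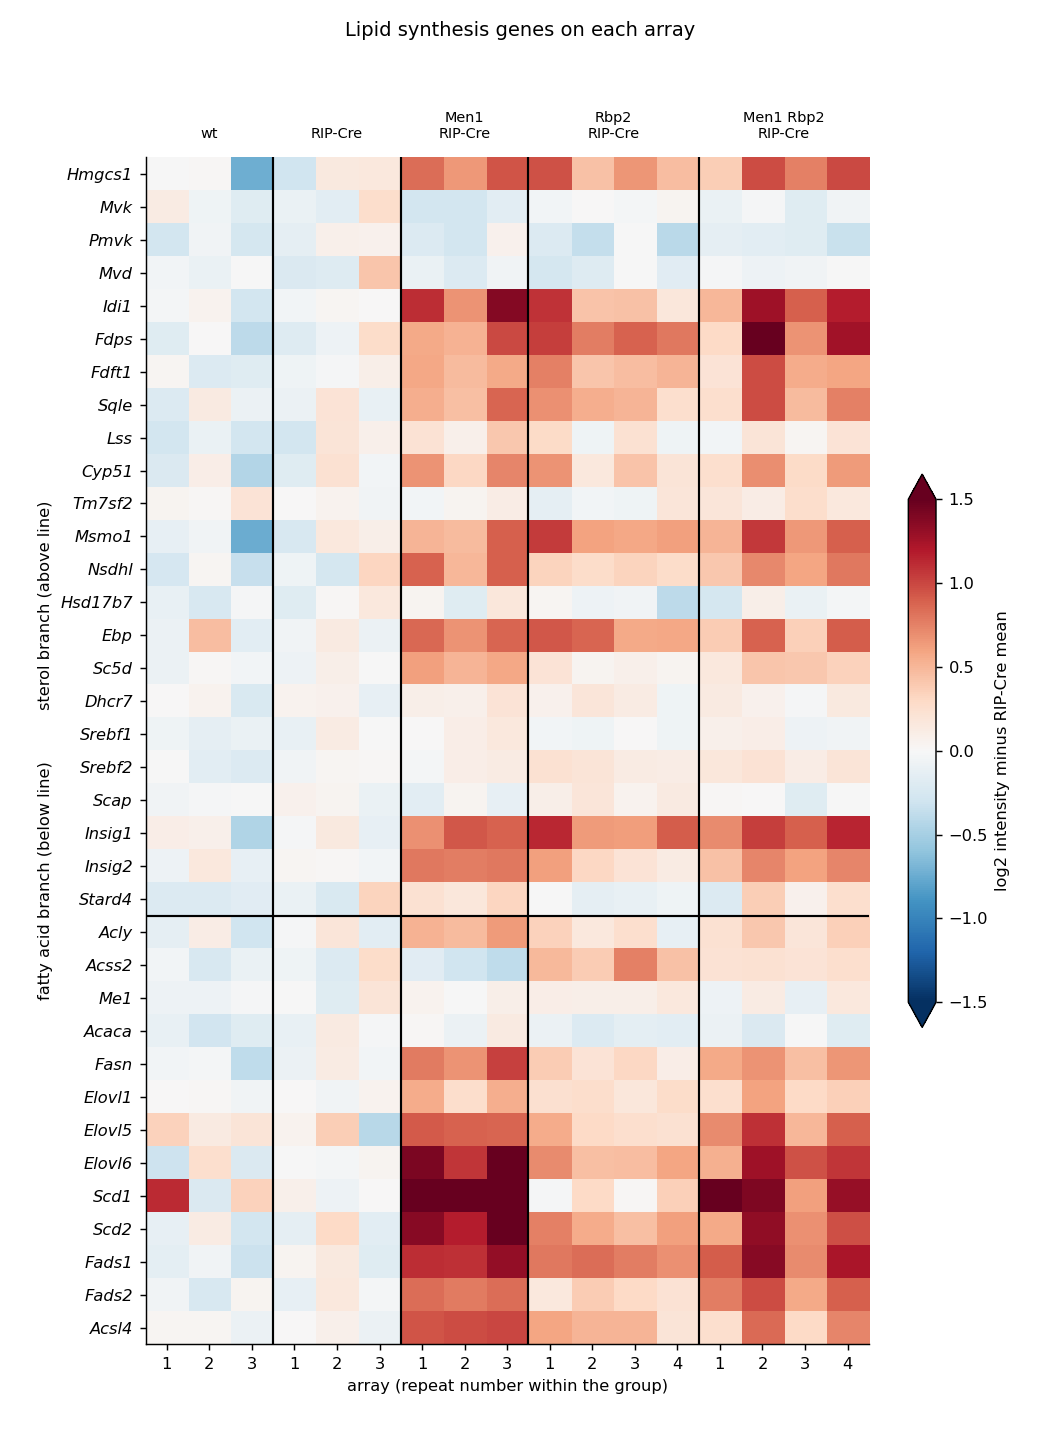
Each cell is the log2 intensity of a gene (row) on an array (column) minus the mean of that gene over the 3 RIP-Cre arrays, with colours ending at 1.5 in either direction. The 3 Men1 knockout columns are red for most enzymes, led by Scd1, while rows such as Mvk, Srebf1 and Me1 stay pale across all 17 arrays.

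The targeted genes and the arrays as a whole bear on these values. Men1 lay between 8.14 and 8.43 on Men1 knockout arrays and between 8.46 and 8.87 on double-knockout arrays, beside 9.31 to 9.49 in RIP-Cre. In the Rbp2 knockout it was higher, at 10.05 to 10.24. Kdm5a was not called in any comparison, at -0.22 in the Rbp2 knockout against RIP-Cre (adjusted p = 0.148), and where its probes lie was not analysed here. Changes against RIP-Cre depended on level: binned by level into 10 parts of equal number, genes had a median log2 fold change in the Men1 knockout of -0.43 in the dimmest part and 0.20 in the brightest. The array medians ran from 7.97 to 8.16 in RIP-Cre and from 7.86 to 7.87 in the Men1 knockout.

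**Figure D2:**
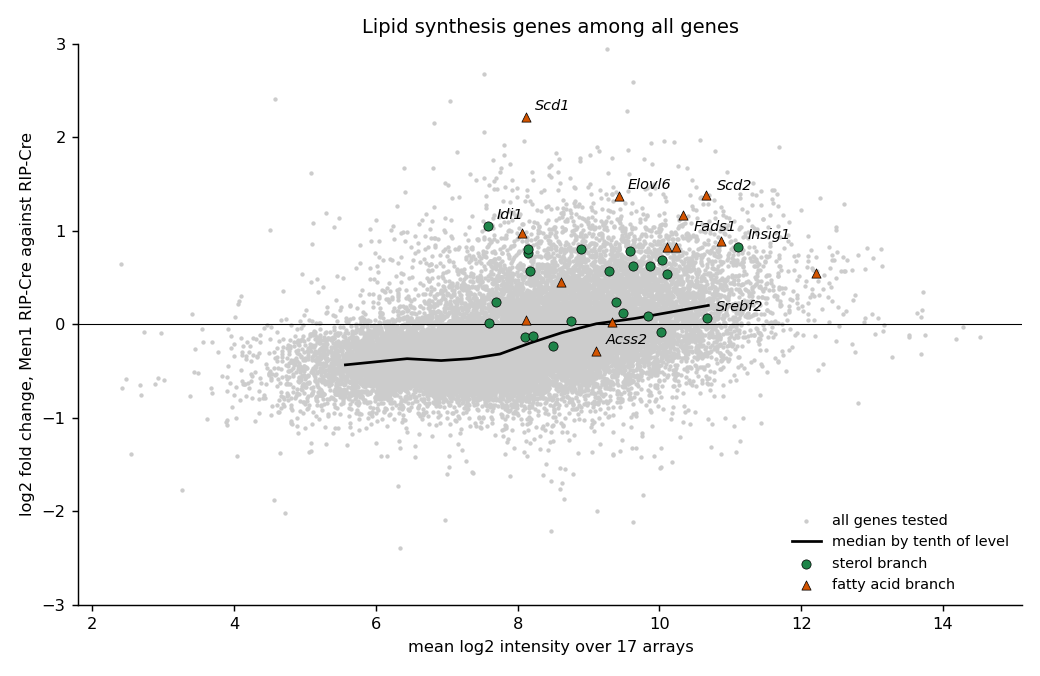
The log2 fold change of the Men1 knockout against RIP-Cre is plotted against the mean log2 intensity over 17 arrays for all 19938 genes (grey), the 23 sterol genes (circles) and the 13 fatty acid genes (triangles), with the median of each of 10 level bins as a line. The line climbs from -0.43 to 0.20, and Scd1, at 2.22, stands far above it at its own level.

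Cell type markers also moved between the groups. Of 10 beta cell markers 7 rose in the Men1 knockout, 3 in the Rbp2 knockout and 7 in the double knockout, where 15.7%, 6.7% and 13% of all genes were called higher, and none fell. The mean level of that list on an array was 11.62 to 12.19 in RIP-Cre, 12.55 to 12.63 in the Men1 knockout, 12.26 to 12.45 in the Rbp2 knockout and 12.38 to 12.56 in the double knockout. Adipocyte markers, which belong to another cell type that makes fatty acids, were called lower in 3 of 7 cases in the Men1 knockout, where 37.8% of all genes were, with list means of 6.80 to 6.93 beside 7.10 to 7.51 in RIP-Cre. Acinar markers varied widely within groups, from 8.14 to 10.73 in RIP-Cre and from 8.52 to 10.56 in the Men1 knockout, and 1 of 7 fell. Markers of alpha, delta and PP cells fell in 3 of 7 cases in the Men1 knockout, duct markers in 3 of 5, endothelial markers in 3 of 6 and Schwann cell markers in 2 of 2, again beside 37.8% of all genes. Of 8 macrophage markers 3 rose and 1 fell, 1 of 6 lymphocyte markers rose, and 0 of 6 mesenchymal markers were called. In the Rbp2 knockout 1 of 7 adipocyte and 1 of 5 duct markers fell. There 1 of 6 endothelial markers and 1 of 7 of alpha, delta and PP cells rose. Of all genes 6.7% were called lower and 6.7% higher in that knockout. In the double knockout 2 of 7 adipocyte, 1 of 5 duct and 3 of 6 endothelial markers fell. So did 2 of 2 Schwann cell markers and 3 of 7 of alpha, delta and PP cells. Another 1 of the latter rose, as did 3 of 8 macrophage and 1 of 6 lymphocyte markers. Of all genes 20.6% were called lower and 13% higher in that knockout. The marker counts depended on scaling: after cyclic loess normalization 6 beta cell markers rose and 2 fell in the Men1 knockout, 1 adipocyte marker rose and 1 fell, 0 of 5 duct markers were called, and 6 of 7 markers of alpha, delta and PP cells fell. Of all genes 18.4% were called higher and 16% lower in the Men1 knockout in that fit. The part of these marker shifts in the results was not tested. In whole islets, fewer cells of a type and less RNA per cell cannot be told apart.

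Of the genes called in each of the 3 knockouts, 6 have a window in the RefSeq table of the GRCm38.p6 build, and the 250 bases before their start sites are given to show where the searched motifs lie and where they are missing. The Acsl4 window precedes a start site inside the span given below for that gene. Capitals mark the CCAAT box, read on either strand as CCAAT or ATTGG, and in Hmgcs1 also the sterol-response motif TCACNCCAC.
Hmgcs1, chr13:119690101-119690350, plus strand: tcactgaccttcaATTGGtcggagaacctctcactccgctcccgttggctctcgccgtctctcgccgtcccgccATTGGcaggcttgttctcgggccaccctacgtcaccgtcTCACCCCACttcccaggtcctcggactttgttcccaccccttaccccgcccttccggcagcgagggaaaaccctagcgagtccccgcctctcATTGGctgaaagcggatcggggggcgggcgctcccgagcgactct
Msmo1, chr8:64733579-64733828, minus strand: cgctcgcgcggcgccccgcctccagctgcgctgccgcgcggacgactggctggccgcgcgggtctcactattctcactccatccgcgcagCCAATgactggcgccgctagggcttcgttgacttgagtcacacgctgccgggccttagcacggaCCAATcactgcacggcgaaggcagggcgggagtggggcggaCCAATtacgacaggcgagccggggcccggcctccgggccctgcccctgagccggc
Ebp, chrX:8193513-8193762, minus strand: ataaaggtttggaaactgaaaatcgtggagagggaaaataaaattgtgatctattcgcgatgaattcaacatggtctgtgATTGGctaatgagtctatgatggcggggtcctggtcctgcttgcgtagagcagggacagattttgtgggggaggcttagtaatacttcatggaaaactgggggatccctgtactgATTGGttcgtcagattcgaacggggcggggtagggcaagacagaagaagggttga
Insig1, chr5:28071162-28071411, plus strand: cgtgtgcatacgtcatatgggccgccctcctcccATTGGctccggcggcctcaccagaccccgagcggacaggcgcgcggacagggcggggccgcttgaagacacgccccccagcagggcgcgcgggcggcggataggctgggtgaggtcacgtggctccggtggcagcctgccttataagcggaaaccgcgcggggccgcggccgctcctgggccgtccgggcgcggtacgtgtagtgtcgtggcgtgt
Elovl6, chr3:129532136-129532385, plus strand: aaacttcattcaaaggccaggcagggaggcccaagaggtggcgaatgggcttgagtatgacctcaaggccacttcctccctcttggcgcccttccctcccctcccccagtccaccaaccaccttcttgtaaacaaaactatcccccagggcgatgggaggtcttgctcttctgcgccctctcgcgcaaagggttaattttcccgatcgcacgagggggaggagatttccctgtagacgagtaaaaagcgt
Acsl4, chrX:142390536-142390785, minus strand: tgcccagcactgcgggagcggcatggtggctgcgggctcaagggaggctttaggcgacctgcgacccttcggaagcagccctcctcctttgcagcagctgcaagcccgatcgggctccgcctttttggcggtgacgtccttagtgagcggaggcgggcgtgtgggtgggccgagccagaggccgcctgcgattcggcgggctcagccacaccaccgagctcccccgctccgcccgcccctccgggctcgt

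The windows of Hmgcs1 and Msmo1 hold 3 CCAAT boxes each, that of Ebp 2, that of Insig1 1 and those of Elovl6 and Acsl4 none. In Hmgcs1 the motif TCACNCCAC starts 137 bases before the start site, and an E-box, CACGTG, starts 101 bases before it in Insig1. Of the 36 measured genes 29 have such a window, 19 sterol and 10 fatty acid. A CCAAT box was found in 18 of the 19 sterol genes and in 5 of the 10 fatty acid genes, beside 33.8% of all 32851 windows and 37.5% of 27025 genes. The GC box, GGGCGG, was found in 18 of 19 and 6 of 10, beside 32.7% of windows and 35.4% of genes. The motif TCACNCCAC was in 1 of the 29 genes, beside 1.05% of windows and 1.22% of genes. CACGTG was in 6 of 29, beside 6.02% of windows and 6.86% of genes. All motifs were searched on both strands, and no searched motif contains another. Of the genes with a window, 12 of 16 called in the Men1 knockout and 11 of 13 not called there held a CCAAT box.

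The opening steps of the sterol branch divided by enzyme. In the Men1 knockout and in the double knockout 3 of the 6 mevalonate and isoprenoid genes rose, and 2 of 6 rose in the Rbp2 knockout. The genes that rose were Hmgcs1, Idi1 and Fdps, while the 3 genes between them in the pathway, Mvk, Pmvk and Mvd, were not called in any knockout.

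Hmgcs1 encodes the synthase that makes HMG-CoA, and lies on chromosome 13 from 119690351 to 119708260 (GRCm38.p6). It read 8.45, 8.47 and 7.72 in wt and 8.16, 8.60 and 8.61 in RIP-Cre. Its values were 9.29, 9.11 and 9.40 in the Men1 knockout, 9.41, 8.90, 9.12 and 8.92 in the Rbp2 knockout and 8.83, 9.43, 9.21 and 9.45 in the double knockout. All 11 knockout arrays lay above all 6 control arrays. The log2 fold change against RIP-Cre was 0.81 (SE 0.21, adjusted p = 0.00588) in the Men1 knockout, 0.63 (adjusted p = 0.0441) in the Rbp2 knockout and 0.77 (adjusted p = 0.00985) in the double knockout.

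Idi1, the isomerase that interconverts the building blocks of isoprenoids (chromosome 13, 8885606 to 8892396), had the largest change of the sterol branch in the Men1 knockout. Control arrays read 7.03, 7.11 and 6.79 in wt and 7.02, 7.09 and 7.07 in RIP-Cre. Knockout arrays read 8.17, 7.73 and 8.44 in the Men1 knockout, 8.14, 7.49, 7.50 and 7.23 in the Rbp2 knockout and 7.56, 8.33, 7.96 and 8.24 in the double knockout. Every knockout array exceeded every control array, although the Rbp2 arrays spread widely, with array 1 apart from the other 3. The change was 1.05 (SE 0.22, adjusted p = 0.00219) in the Men1 knockout and 0.96 (adjusted p = 0.00513) in the double knockout, and 0.53 without a call in the Rbp2 knockout (adjusted p = 0.0846). Another probe set of the gene had means of 6.74 in RIP-Cre and 7.84 in the Men1 knockout.

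Fdps joins isoprenoid units into farnesyl diphosphate, and lies on chromosome 3 from 89093588 to 89101967. It stood at 9.33, 9.52 and 9.12 in wt and 9.32, 9.44 and 9.79 in RIP-Cre. The knockouts gave 10.08, 10.04 and 10.51 in the Men1 knockout, 10.55, 10.28, 10.40 and 10.31 in the Rbp2 knockout and 9.81, 11.07, 10.19 and 10.78 in the double knockout. No knockout array fell into the control range, and the double-knockout arrays spread most. The change was 0.69 (adjusted p = 0.0259) in the Men1 knockout, 0.87 (adjusted p = 0.0275) in the Rbp2 knockout and 0.95 (adjusted p = 0.00817) in the double knockout.

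The kinases Mvk and Pmvk and the decarboxylase Mvd carry mevalonate to the isoprenoid unit. In the Men1 knockout their changes were -0.23, -0.13 and -0.12, in the Rbp2 knockout -0.01, -0.24 and -0.16, and in the double knockout -0.09, -0.20 and -0.04. Knockout and RIP-Cre arrays overlapped for all 3 genes in each comparison.

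From squalene onward 7 of 11 genes rose in the Men1 knockout, 3 in the Rbp2 knockout and 7 in the double knockout. Fdft1, Sqle, Cyp51, Msmo1, Nsdhl, Ebp and Sc5d made up the 7 in both Men1 knockouts. Lss, Tm7sf2, Hsd17b7 and Dhcr7 encode the cyclase that forms lanosterol and 3 reductases of later steps. Against RIP-Cre alone they were not called in any knockout, with changes between -0.12 and 0.24. With wt and RIP-Cre pooled as control, Lss was called by limma in the Men1 knockout (0.34, adjusted p = 0.021).

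Fdft1, squalene synthase (chromosome 14, 63145150 to 63181687), had the smallest called change of the branch in the Men1 knockout. It read 9.80, 9.57 and 9.59 in wt and 9.70, 9.75 and 9.86 in RIP-Cre. It then read 10.35, 10.24 and 10.34 in the Men1 knockout, 10.53, 10.19, 10.23 and 10.28 in the Rbp2 knockout and 9.97, 10.75, 10.33 and 10.36 in the double knockout. The knockouts were all above the controls, and their changes were alike in size: 0.54 (adjusted p = 0.00797), 0.54 (adjusted p = 0.0262) and 0.58 (adjusted p = 0.00755). A further probe set of Fdft1 had means of 9.31 in RIP-Cre and 9.92 in the Men1 knockout.

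Sqle, the epoxidase that opens the path to ring closure, changed by 0.62 (adjusted p = 0.00849) in the Men1 knockout and 0.61 (adjusted p = 0.0114) in the double knockout, and by 0.49 without a call in the Rbp2 knockout (adjusted p = 0.0506). Its control arrays ran from 9.07 to 9.47 and its knockout arrays from 9.52 to 10.25.

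Cyp51, the lanosterol demethylase on chromosome 5 from 4080674 to 4104697, read 7.70, 8.02 and 7.48 in wt and 7.73, 8.14 and 7.88 in RIP-Cre. It read 8.59, 8.23 and 8.65 in the Men1 knockout, 8.59, 8.07, 8.35 and 8.11 in the Rbp2 knockout and 8.17, 8.61, 8.20 and 8.55 in the double knockout. Men1 and double-knockout arrays stood above RIP-Cre, whereas Rbp2 arrays 2 and 4 lay below RIP-Cre array 2. The changes were 0.57 (adjusted p = 0.0147), 0.36 (adjusted p = 0.121) and 0.47 (adjusted p = 0.041) in the Men1, Rbp2 and double knockouts.

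Msmo1 and Nsdhl remove methyl groups from the sterol ring. Msmo1 (chromosome 8, 64718123 to 64733578) read 9.34, 9.41 and 8.72 in wt and 9.22, 9.62 and 9.55 in RIP-Cre. In the knockouts it read 9.97, 9.94 and 10.36 in the Men1 knockout, 10.51, 10.07, 10.04 and 10.08 in the Rbp2 knockout and 9.97, 10.52, 10.11 and 10.36 in the double knockout. All knockout arrays were above all controls, and Rbp2 array 1 stood apart from the other 3 of its group. The change was 0.63 (adjusted p = 0.0147) in the Men1 knockout, 0.71 (adjusted p = 0.0259) in the Rbp2 knockout and 0.78 (adjusted p = 0.00711) in the double knockout. Nsdhl rose by 0.76 (adjusted p = 0.0014) in the Men1 knockout and 0.63 (adjusted p = 0.00554) in the double knockout, and its change of 0.30 in the Rbp2 knockout was not called (adjusted p = 0.12). The 4 Rbp2 arrays of Nsdhl, at 8.10 to 8.15, were closely spaced and overlapped RIP-Cre, where array 3 stood at 8.14.

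Ebp, a sterol isomerase on the X chromosome from 8185329 to 8193512, read 7.57, 8.13 and 7.50 in wt and 7.61, 7.80 and 7.58 in RIP-Cre. It read 8.52, 8.34 and 8.54 in the Men1 knockout, 8.60, 8.54, 8.23 and 8.24 in the Rbp2 knockout and 8.04, 8.55, 8.02 and 8.57 in the double knockout. Every knockout array was above RIP-Cre, but wt array 2 was higher than double-knockout arrays 1 and 3. The change was 0.80 (adjusted p = 0.00288) in the Men1 knockout, 0.74 (adjusted p = 0.0188) in the Rbp2 knockout and 0.63 (adjusted p = 0.0123) in the double knockout.

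Sc5d, the desaturase that acts on the sterol ring after Ebp (chromosome 9, 42251592 to 42264300), was measured with little spread within groups. It read 9.0, 9.11 and 9.05 in wt and 9.01, 9.18 and 9.08 in RIP-Cre. Its knockout values were 9.71, 9.60 and 9.67 in the Men1 knockout, 9.29, 9.13, 9.17 and 9.13 in the Rbp2 knockout and 9.25, 9.51, 9.50 and 9.43 in the double knockout. Men1 arrays were above all others, the double knockout lay between them and RIP-Cre, and the Rbp2 knockout overlapped RIP-Cre. The changes were 0.57 (SE 0.09, adjusted p = 0.000377) in the Men1 knockout, 0.09 (adjusted p = 0.421) in the Rbp2 knockout and 0.33 (adjusted p = 0.00956) in the double knockout.

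Among the SREBP regulators the 2 Insig genes rose, and the factors did not pass against RIP-Cre alone. Insig1, which retains the Scap complex in the endoplasmic reticulum and is itself an SREBP target (chromosome 5, 28071412 to 28078662), read 10.67, 10.64 and 10.11 in wt and 10.55, 10.71 and 10.44 in RIP-Cre. The knockout arrays read 11.25, 11.50 and 11.45 in the Men1 knockout, 11.70, 11.20, 11.19 and 11.47 in the Rbp2 knockout and 11.27, 11.60, 11.46 and 11.71 in the double knockout. The lowest knockout array, at 11.19, exceeded the highest control array, at 10.71. The changes of 0.83 (SE 0.16, adjusted p = 0.00146), 0.82 (adjusted p = 0.0103) and 0.94 (adjusted p = 0.00151) were close to one another in the 3 knockouts. Insig2, which does the same work, rose by 0.78 (adjusted p = 0.000339) in the Men1 knockout, where its 3 arrays lay close together, and by 0.63 (adjusted p = 0.00231) in the double knockout. In the Rbp2 knockout it stood at 0.31 without a call (adjusted p = 0.0641).

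Srebf2, the factor most tied to sterol genes, had changes of 0.06, 0.16 and 0.17 in the Men1, Rbp2 and double knockouts, and Srebf1, tied more to fatty acid genes, had 0.09, -0.04 and 0.01. Scap, the escort of both, had -0.08, 0.11 and -0.04. Stard4, a carrier of cholesterol between membranes, had 0.24, -0.08 and 0.12. After cyclic loess normalization, Scap (-0.22) and Stard4 (0.52) were called in the Men1 knockout. When all 6 control arrays were taken as 1 group, Srebf2 was called in the Rbp2 knockout (0.23, adjusted p = 0.0213) and in the double knockout (0.24, adjusted p = 0.00939). Stard4 was called by limma in the Men1 knockout in that fit (0.34, adjusted p = 0.0262). Levels of these messages do not measure the cleaved factors in the nucleus.

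**Figure D3:**
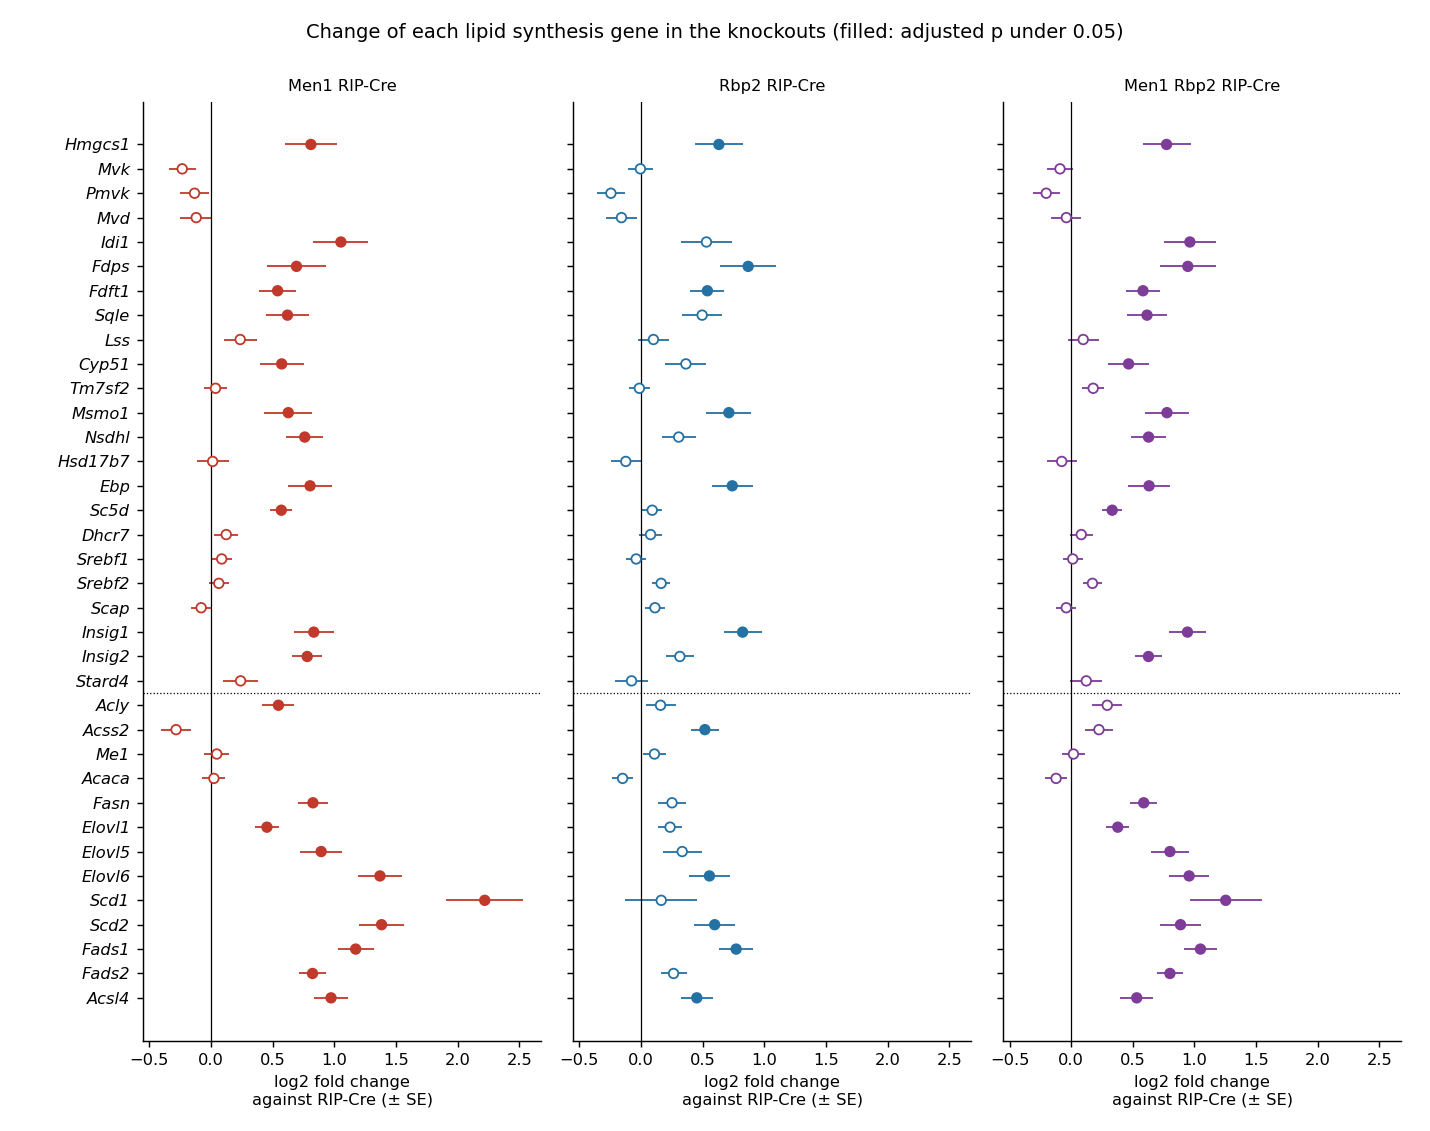
Points are log2 fold changes of each gene against RIP-Cre with SE bars in the Men1, Rbp2 and double knockouts, filled where the limma adjusted p was under 0.05, with the sterol branch above the dotted line. Filled points lie right of 0 in all panels, 22 in the first, 11 in the second and 21 in the third.

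In the fatty acid branch the supply genes differed from the rest. Acly, Acss2 and Me1 furnish cytosolic acetyl-CoA from citrate, acetyl-CoA from acetate, and NADPH. Acly (chromosome 11, 100476352 to 100528000) read 11.89, 12.14 and 11.73 in wt and 12.01, 12.21 and 11.87 in RIP-Cre. It read 12.55, 12.51 and 12.67 in the Men1 knockout, 12.37, 12.19, 12.28 and 11.91 in the Rbp2 knockout and 12.26, 12.43, 12.21 and 12.39 in the double knockout. Men1 arrays were above all others, and the remaining groups overlapped. Acly rose by 0.55 (adjusted p = 0.00399) in the Men1 knockout, and was not called in the Rbp2 knockout (0.16) or the double knockout (0.29). After cyclic loess normalization its change in the Men1 knockout was 0.16 and not called. With wt and RIP-Cre pooled as control, Acly was called by limma in the double knockout (0.35, adjusted p = 0.0119).

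Acss2 is the acetate-activating enzyme (chromosome 2, 155518043 to 155562743). Against RIP-Cre alone it was the one gene of either branch called in the Rbp2 knockout and in neither Men1 knockout. It read 8.97, 8.77 and 8.91 in wt and 8.94, 8.80 and 9.29 in RIP-Cre. It read 8.84, 8.71 and 8.63 in the Men1 knockout, 9.50, 9.39, 9.77 and 9.45 in the Rbp2 knockout and 9.23, 9.24, 9.21 and 9.26 in the double knockout. The Rbp2 arrays lay above all other 13, the double-knockout arrays lay close together below them, and the Men1 arrays overlapped the controls. Acss2 rose by 0.52 (SE 0.11, adjusted p = 0.0169) in the Rbp2 knockout, and stood at -0.28 (adjusted p = 0.0585) in the Men1 knockout and 0.23 (adjusted p = 0.126) in the double knockout. The missing call in the double knockout depended on the control. With wt and RIP-Cre pooled as control, Acss2 was called there by limma (0.29, adjusted p = 0.0222). Without wt arrays 1 and 3 and RIP-Cre array 3 its change there was 0.365. Me1, the malic enzyme, was at 0.05, 0.11 and 0.02 in the 3 knockouts and was not called. A dimmer probe set of Me1 had means of 7.553 in RIP-Cre and 7.78 in the Men1 knockout. It had 7.755 in the Rbp2 knockout and 7.692 in the double knockout.

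Of the 9 genes of synthesis, elongation and desaturation 8 rose in the Men1 knockout, 3 in the Rbp2 knockout and 8 in the double knockout. The exception was Acaca, the carboxylase that commits acetyl-CoA to fatty acids, at 0.02, -0.15 and -0.12. A dimmer probe set of Acaca had means of 8.363 in RIP-Cre and 8.653 in the Men1 knockout. It had 8.275 in the Rbp2 knockout and 8.252 in the double knockout. Fasn, the synthase that builds palmitate (chromosome 11, 120805958 to 120825166), read 9.75, 9.76 and 9.41 in wt and 9.70, 9.91 and 9.75 in RIP-Cre. It read 10.57, 10.46 and 10.81 in the Men1 knockout, 10.17, 9.99, 10.10 and 9.89 in the Rbp2 knockout and 10.35, 10.46, 10.24 and 10.45 in the double knockout. Both Men1 knockouts stood above every other array, while Rbp2 array 4 lay below RIP-Cre array 2. The changes were 0.83 (adjusted p = 0.000243) in the Men1 knockout, 0.25 (adjusted p = 0.114) in the Rbp2 knockout and 0.59 (adjusted p = 0.00297) in the double knockout.

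The elongases add carbon units to fatty acids of different lengths. Elovl6, which lengthens palmitate (chromosome 3, 129532386 to 129638495), read 8.53, 9.09 and 8.63 in wt and 8.84, 8.81 and 8.88 in RIP-Cre. It read 10.26, 9.92 and 10.46 in the Men1 knockout, 9.55, 9.30, 9.31 and 9.43 in the Rbp2 knockout and 9.38, 10.11, 9.80 and 9.91 in the double knockout. All knockout arrays were above all controls, and Men1 arrays were above all Rbp2 arrays. The changes were 1.37 (SE 0.18, adjusted p = 0.000118), 0.55 (adjusted p = 0.0398) and 0.96 (adjusted p = 0.00197) in the Men1, Rbp2 and double knockouts.

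Elovl1, which works on saturated very long chains (chromosome 4, 118426874 to 118432953), had the smallest called change of the branch in both Men1 knockouts. It read 8.39, 8.41 and 8.34 in wt and 8.39, 8.34 and 8.44 in RIP-Cre. It read 8.95, 8.65 and 8.93 in the Men1 knockout, 8.63, 8.65, 8.56 and 8.66 in the Rbp2 knockout and 8.64, 8.99, 8.69 and 8.75 in the double knockout. Knockout and control arrays did not overlap. The changes were 0.45 (adjusted p = 0.00276), 0.23 (adjusted p = 0.0871) and 0.38 (adjusted p = 0.00944). Elovl5, which extends polyunsaturated chains, rose by 0.89 (adjusted p = 0.00114) in the Men1 knockout, where its arrays lay within 11.28 to 11.33, and by 0.80 (adjusted p = 0.00331) in the double knockout, and stood at 0.33 (adjusted p = 0.13) in the Rbp2 knockout.

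The desaturases are encoded in pairs of neighbours on chromosome 19, and all 4 rose in both Men1 knockouts. Scd1, which makes oleate from stearate (44394450 to 44407709), had the largest change of all 36 genes. It read 8.44, 7.10 and 7.66 in wt and 7.39, 7.24 and 7.32 in RIP-Cre. It read 9.38, 9.07 and 10.16 in the Men1 knockout, 7.30, 7.61, 7.34 and 7.67 in the Rbp2 knockout and 9.01, 8.72, 7.93 and 8.62 in the double knockout. Men1 arrays were above all others, the double knockout lay between them and RIP-Cre, and the Rbp2 knockout overlapped RIP-Cre, while wt array 1 reached into the double-knockout range. Group means were 7.32 ± 0.08 (SD, n = 3) in RIP-Cre, 9.54 ± 0.56 (SD, n = 3) in the Men1 knockout, 7.48 ± 0.19 (SD, n = 4) in the Rbp2 knockout and 8.57 ± 0.46 (SD, n = 4) in the double knockout. The changes were 2.22 (SE 0.31, adjusted p = 0.000209), 0.16 (adjusted p = 0.683) and 1.25 (adjusted p = 0.00694).

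Scd2, the other stearoyl-CoA desaturase of the pair (44293676 to 44306864), read 9.96, 10.21 and 9.81 in wt and 9.95, 10.38 and 9.92 in RIP-Cre. It read 11.45, 11.26 and 11.69 in the Men1 knockout, 10.84, 10.64, 10.54 and 10.70 in the Rbp2 knockout and 10.65, 11.41, 10.77 and 11.05 in the double knockout. Unlike Scd1, it lay above every control on all 4 Rbp2 arrays. The changes were 1.38 (SE 0.18, adjusted p = 0.000128) in the Men1 knockout, 0.60 (adjusted p = 0.0345) in the Rbp2 knockout and 0.89 (adjusted p = 0.00301) in the double knockout. Whether probes of Scd1 and Scd2, which are close relatives, bind each other's RNA was not tested.

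Fads1 and Fads2 place double bonds in polyunsaturated fatty acids. Fads1 (10182877 to 10196874) read 9.58, 9.67 and 9.40 in wt and 9.77, 9.87 and 9.54 in RIP-Cre. It read 10.83, 10.82 and 11.05 in the Men1 knockout, 10.52, 10.57, 10.49 and 10.41 in the Rbp2 knockout and 10.63, 11.09, 10.43 and 10.95 in the double knockout. The lowest knockout array, at 10.41, was above the highest control array, at 9.87. The changes were 1.17 (SE 0.15, adjusted p = 9.35e-05), 0.77 (adjusted p = 0.00848) and 1.05 (adjusted p = 0.000327) in the Men1, Rbp2 and double knockouts.

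Fads2 (10062765 to 10101503) read 9.80, 9.62 and 9.90 in wt and 9.73, 10.01 and 9.83 in RIP-Cre. It read 10.70, 10.64 and 10.70 in the Men1 knockout, 10.01, 10.24, 10.16 and 10.07 in the Rbp2 knockout and 10.63, 10.83, 10.42 and 10.75 in the double knockout. Both Men1 knockouts lay above all Rbp2 and control arrays, and the lowest Rbp2 array equalled the highest RIP-Cre array. The changes were 0.82 (adjusted p = 0.00018), 0.26 (adjusted p = 0.0883) and 0.80 (adjusted p = 0.000386).

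Acsl4 activates arachidonate and other long chains, and lies on the X chromosome from 142317993 to 142390802. It read 7.69, 7.69 and 7.57 in wt and 7.67, 7.74 and 7.58 in RIP-Cre. It read 8.61, 8.64 and 8.66 in the Men1 knockout, 8.26, 8.17, 8.17 and 7.86 in the Rbp2 knockout and 7.92, 8.51, 7.96 and 8.39 in the double knockout. Men1 arrays stood above all others, and both other knockouts stood above the controls. The changes were 0.97 (SE 0.14, adjusted p = 0.000244), 0.45 (adjusted p = 0.0382) and 0.53 (adjusted p = 0.00932).

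**Figure D4:**
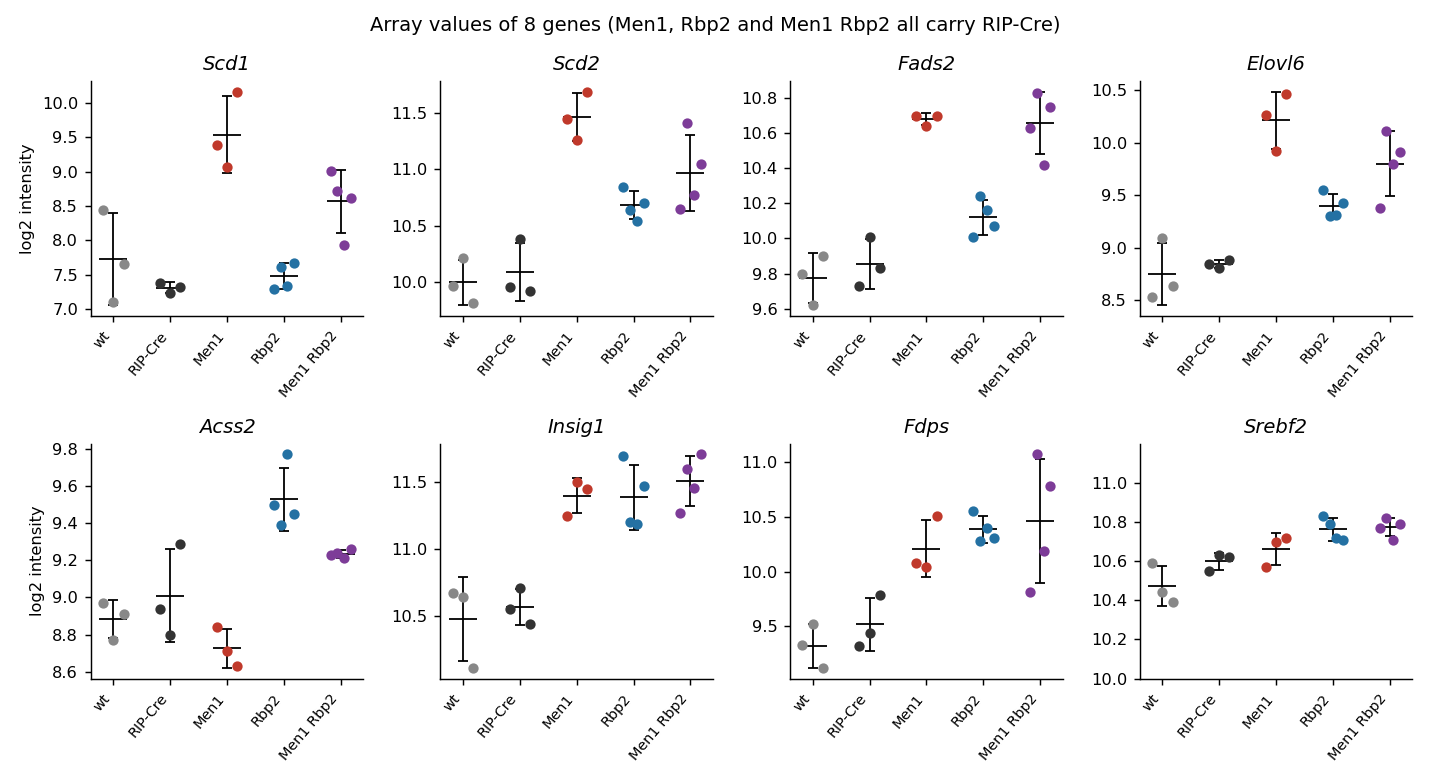
Points are log2 intensities of 8 genes on every array of the 5 groups, with the group mean as a bar and the SD as error bars, and each panel has its own vertical range. Scd1 and Fads2 are high in both Men1 knockouts and near RIP-Cre in the Rbp2 knockout, Insig1 is high in all 3 knockouts, Acss2 is highest in the Rbp2 knockout, and Srebf2 spans a narrow range in all groups.

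The double knockout was then set against each parent knockout, the question being whether loss of Rbp2 alters the pattern seen with loss of Men1. Against the Men1 knockout 0 of 23 sterol genes were called with limma (1 had an unadjusted p under 0.05), and 1 of 13 fatty acid genes was, where 1.67% of all genes were called, 1.1% as higher. That gene was Acss2, which rose by 0.51 (SE 0.11, adjusted p = 0.0299). The median change was -0.04 over the sterol genes and -0.15 over the fatty acid genes, beside 0.07 over all genes. The double-knockout arrays lay below all 3 Men1 arrays for 2 sterol genes, Sc5d and Insig2, and 3 fatty acid genes, Scd1, Acly and Acsl4, as 6.15% of all genes did, and above them for Acss2, as 14.3% did. Of the lower genes, Scd1 had a change of -0.97 (adjusted p = 0.129), Acsl4 of -0.44 (adjusted p = 0.124), Acly of -0.25 (adjusted p = 0.351) and Sc5d of -0.24 (adjusted p = 0.198), and none was called.

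Against the Rbp2 knockout 0 of 23 sterol genes were called (5 had an unadjusted p under 0.05), and 1 of 13 fatty acid genes was, where 1.2% of all genes were called, 0.582% as higher. Fads2 rose by 0.54 (SE 0.10, adjusted p = 0.0109), and its 4 double-knockout arrays, from 10.42 to 10.83, were above its 4 Rbp2 arrays. Scd1 had a larger change, 1.09, that did not pass (SE 0.27, adjusted p = 0.0634), although its double-knockout arrays were also above all Rbp2 arrays. Fasn and Nsdhl were likewise separate, at 0.34 (adjusted p = 0.145) and 0.32 (adjusted p = 0.306). The medians were 0.08 and 0.28, beside -0.01 over all genes. The double-knockout arrays lay wholly above the Rbp2 arrays for 1 sterol and 3 fatty acid genes, and for 3.39% of all genes. They lay wholly below for 1 sterol gene, Scap (-0.15, adjusted p = 0.45), and 1 fatty acid gene, Acss2 (-0.29, adjusted p = 0.237), and for 3.73% of all genes.

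Whether losing both genes did more or less than the sum of the single losses was tested as an interaction, the effect of Rbp2 loss in Men1 knockout islets minus its effect in RIP-Cre islets. It was called and negative for 1 of 23 sterol genes, Ebp at -0.91 (SE 0.24, adjusted p = 0.0489), and for 4 of 13 fatty acid genes, where 3.39% of all genes were called, 1.61% as lower. The 4 were Scd2 at -1.09 (SE 0.24, adjusted p = 0.0391), Elovl6 at -0.97 (SE 0.23, adjusted p = 0.042), Fads1 at -0.90 (SE 0.19, adjusted p = 0.0374) and Acsl4 at -0.89 (adjusted p = 0.0348). Each of these 5 genes rose in both single knockouts, and its mean in the double knockout was below that in the Men1 knockout. The median interaction was -0.33 over the sterol genes and -0.43 over the fatty acid genes, beside 0.20 over all genes. The interaction also depended on level over all genes. Its median was 0.387 in the dimmest of the 10 level parts, -0.012 in the part with a mean level of 9.11 and -0.184 in the brightest. Insig1 (-0.71, adjusted p = 0.0593) and Scd1 (-1.13, adjusted p = 0.0798) were not called. None of the 5 calls held without each array in turn, since all ended without any 1 of the Men1 knockout arrays, with adjusted p up to 0.131 for Ebp without RIP-Cre array 3. All 5 also ended without the 3 control arrays of high median (wt 1, wt 3 and RIP-Cre 3), where 0.241% of all genes were called.

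Arrays of one group did not vary gene by gene alone. Over the 12 sterol genes called in the Men1 knockout, Rbp2 array 1 was the highest of its group in 12 of 12, Men1 array 2 the lowest in 11 and Men1 array 3 the highest in 8. Double-knockout array 1 was the lowest of its 4 in 11 of 12 and array 2 the highest in 8. The mean of the 12 genes was 9.61 on Rbp2 array 1 and between 9.23 and 9.30 on the other 3, and it ran from 9.19 to 9.76 in the double knockout. Over the 10 fatty acid genes called in the Men1 knockout, double-knockout array 2 was the highest in 9 and Rbp2 array 1 in 6. The sterol genes of an array thus tended to lie high or low together, and the 12 values of an array are not independent measurements.

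The calls in the Rbp2 knockout were the least steady. Without Rbp2 array 1, or without RIP-Cre array 3, 1 of the 6 sterol calls was left, Insig1, and 2 were left without RIP-Cre array 1. Of the 5 fatty acid calls 2 held without each array in turn, Fads1 and Acss2. The log2 fold changes kept their direction but varied in size: Hmgcs1 lay between 0.48 and 0.71 (adjusted p 0.0255 to 0.136), Fdps between 0.77 and 1.00 (adjusted p 0.0166 to 0.0823) and Scd2 between 0.52 and 0.74 (adjusted p 0.0231 to 0.16). In the Men1 knockout all 10 fatty acid calls and 9 of 12 sterol calls held, the exceptions being Cyp51 (adjusted p = 0.0539 without RIP-Cre array 1), Fdps (adjusted p = 0.102 without Men1 array 3) and Msmo1 (adjusted p = 0.0669 without Men1 array 3). In the double knockout 9 of 9 and 9 of 12 held, with Cyp51 at an adjusted p of 0.132 without RIP-Cre array 1, and Ebp and Sqle at 0.0574 without RIP-Cre array 3. The call of Acss2 in the double knockout against the Men1 knockout ended without any 1 array of either group, with adjusted p up to 0.146 without Men1 array 3, while Fads2 against the Rbp2 knockout held in every case.

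Because array medians differed between groups, the calls were repeated under other scalings. After cyclic loess normalization, 11 sterol and 9 fatty acid genes rose in the Men1 knockout and Scap fell. There 34.5% of all genes were called, 18.4% as higher and 16% as lower. In the Rbp2 knockout 3 sterol genes (Msmo1, Ebp and Insig1) and 3 fatty acid genes (Acss2, Fads1 and Acsl4) rose. Of all genes 9.42% were called there, 5.61% as higher. In the double knockout 13 sterol and 9 fatty acid genes rose, beside 25.3% of all genes called, 13.9% as higher. With the array median held fixed as a covariate, 1.99% of all genes were called in the Men1 knockout, 1.06% as higher. Among them were 0 sterol and 5 fatty acid genes: Scd1 (2.63), Elovl6 (1.07), Scd2 (0.94), Fads1 (0.88) and Fads2 (0.85). In that fit the median change of the sterol genes was 0.24 and of the fatty acid genes 0.63, with a median SE of 0.19 and 0.16 in place of 0.13 for each. Acss2 was called in the Rbp2 knockout (0.69), where 0.211% of all genes were, 0.16% as higher. Fads1 (0.84) and Fads2 (0.82) were called in the double knockout, where 1.4% were, 0.863% as higher. The group and the array median move together, so their parts cannot be told apart fully.

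**Figure D5:**
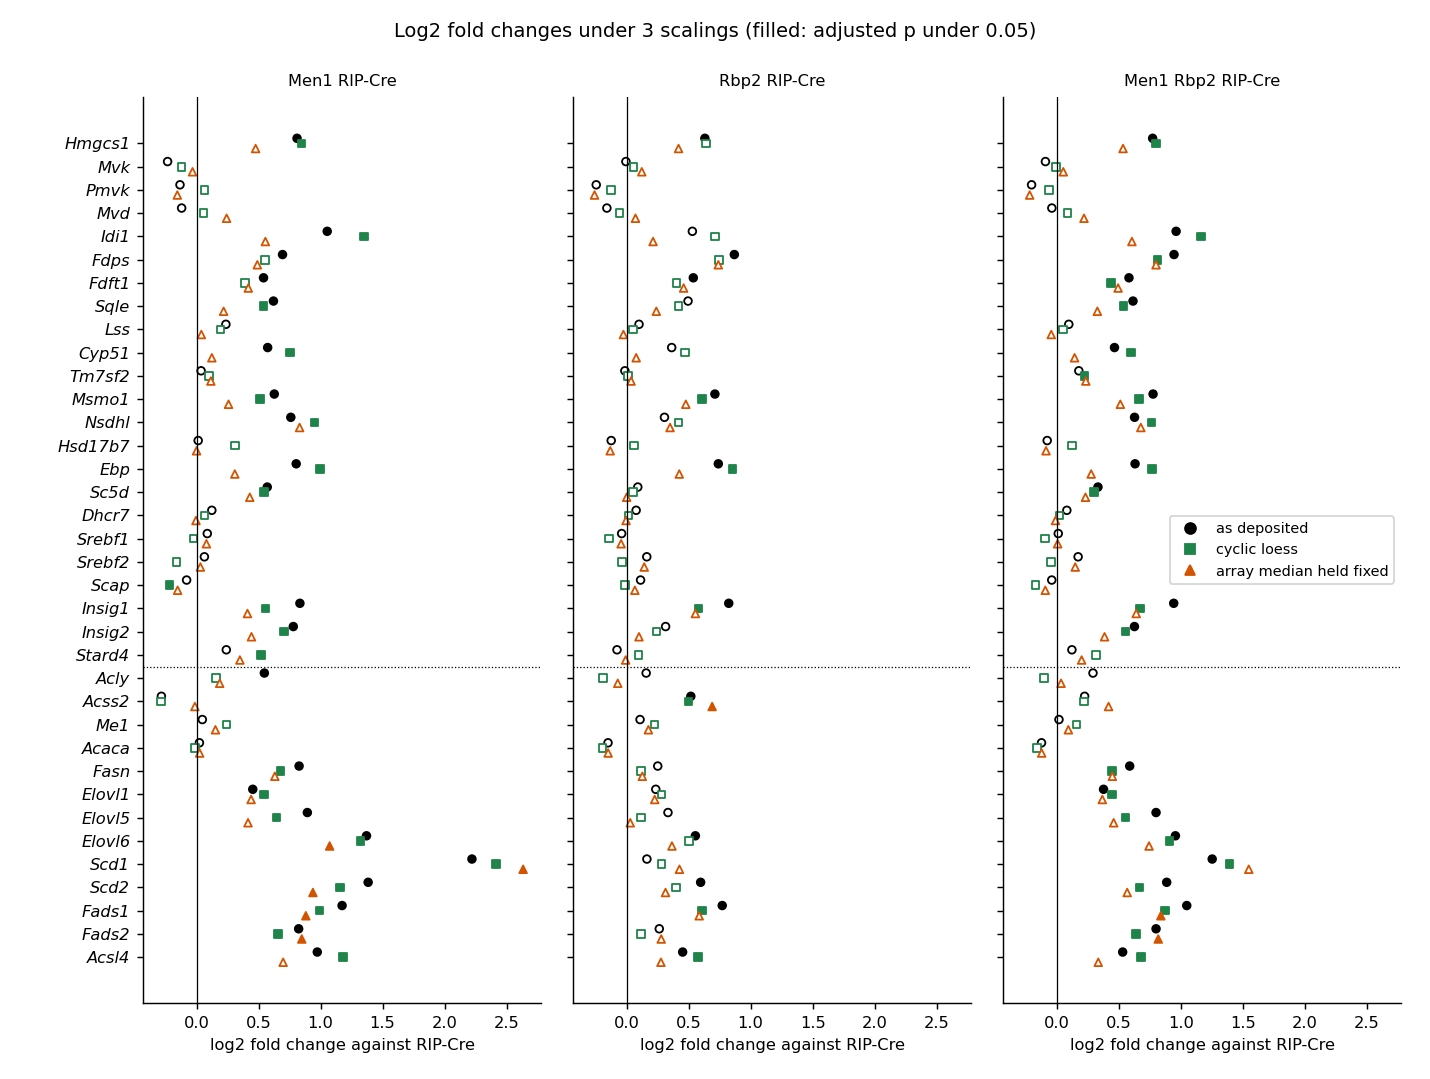
Log2 fold changes against RIP-Cre are shown for each gene as deposited (circles), after cyclic loess normalization (squares) and with the array median held fixed (triangles), filled where the limma adjusted p was under 0.05. Triangles for most sterol genes lie left of the circles and are open, while Scd1, Scd2, Elovl6, Fads1 and Fads2 keep filled triangles in the Men1 knockout.

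Other genes of the same pathways were counted on lists of their own, to be read against the shares of all genes called: 15.7% higher and 37.8% lower in the Men1 knockout, 6.7% and 6.7% in the Rbp2 knockout, and 13% and 20.6% in the double knockout. Of 11 further sterol pathway genes 6 rose and 1 fell in the Men1 knockout, 6 rose in the Rbp2 knockout and 7 rose in the double knockout. In the Men1 knockout they included Ggps1, which makes the diphosphate used in protein prenylation (0.86, adjusted p = 0.000994), and Npc1, which exports cholesterol from lysosomes (0.59, adjusted p = 0.00082), while Idi2, a relative of Idi1, fell by 0.47 (adjusted p = 0.0224). Nus1 (0.93) and Erg28 (0.74) rose in the double knockout, and Cyb5r3 (0.64) and Dhdds (0.60) in the Rbp2 knockout. Means in RIP-Cre and in the Men1 knockout were 9.14 and 10.05 for Nus1 and 9.19 and 9.84 for Erg28. For Cyb5r3 they were 10.85 and 11.59, and for Dhdds 10.03 and 10.33. Npc1 had a negative interaction of -0.55 (adjusted p = 0.048).

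Of 13 genes that control SREBP or respond to oxysterols 5 rose and 1 fell in the Men1 knockout, 1 rose in the Rbp2 knockout and 6 rose in the double knockout. Tmem97, a sterol-regulated membrane protein, rose in all 3, by 0.87 (adjusted p = 0.000602), 0.45 (adjusted p = 0.0427) and 0.85 (adjusted p = 0.00141). Mlx, the partner of the carbohydrate-response factor, rose by 0.78 and 0.59 in the Men1 knockout and the double knockout, and Nr1h3, the oxysterol receptor LXR alpha, fell by 0.32 in the Men1 knockout (adjusted p = 0.0195).

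Of 26 further fatty acid and lipid genes 7 rose and 4 fell in the Men1 knockout, 5 rose and 1 fell in the Rbp2 knockout, and 7 rose and 3 fell in the double knockout. Elovl4, an elongase of very long chains, and Hacd2, a dehydratase of the elongation cycle, rose by 1.45 (adjusted p = 0.000124) and 1.47 (adjusted p = 0.000484) in the Men1 knockout, whereas Elovl3 and Elovl2 fell by 1.07 and 0.81. Elovl4 then fell by 0.94 in the double knockout against the Men1 knockout (adjusted p = 0.00933), with an interaction of -1.17 (adjusted p = 0.037). Its arrays read 8.95, 8.60 and 8.65 in the Men1 knockout and 7.49, 8.19, 7.34 and 8.15 in the double knockout, without overlap, beside 7.20 to 7.38 in RIP-Cre. Hsd17b12, a reductase of the elongation cycle, rose by 1.05 in the Rbp2 knockout (adjusted p = 0.00848) and fell by 0.82 in the double knockout against the Rbp2 knockout (adjusted p = 0.022). Slc25a1, the citrate exporter of mitochondria, rose by 0.68 in the Rbp2 knockout and 0.89 in the double knockout. It was also higher in the Men1 knockout, with a mean of 11.32 beside 10.53 in RIP-Cre.

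Of 15 genes of fatty acid oxidation, which breaks fatty acids down, 5 rose and 4 fell in the Men1 knockout, where 15.7% and 37.8% of all genes did, 4 rose in the Rbp2 knockout, and 3 rose and 2 fell in the double knockout. Acaa2, the last enzyme of a mitochondrial oxidation round, rose by 0.60 (adjusted p = 0.00373) in the Men1 knockout and 0.58 (adjusted p = 0.0194) in the Rbp2 knockout. Ppara, the transcription factor of the pathway, fell by 0.48 (adjusted p = 0.00705) and Acadl, a dehydrogenase of long chains, fell by 0.35 (adjusted p = 0.0098) in the Men1 knockout. Hadh rose by 0.62 in the Rbp2 knockout and by 0.56 in the double knockout, where Acads fell by 0.41. Means in RIP-Cre and in the Men1 knockout were 12.21 and 12.78 for Hadh and 9.07 and 8.56 for Acads.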

How the data were processed

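Total RNA of mouse islets was labelled with the GeneChip WT Terminal Labeling kit and hybridised to 1 Affymetrix array per sample, per the labels' protocols. The values used were log2 intensities per probe set as deposited by the authors. How they were background-corrected and normalized, and with which software, is not given in the sources used here. Precision is limited by the number of arrays. Of 35512 probe sets 21789 were annotated to 1 gene, 1621 to several and 12102 were not named. Only the first kind was used, which gave 19938 genes, and the brightest probe set over all arrays stood for each of the 999 genes with several.

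All 17 arrays entered 1 limma fit (limma 3.58.1, R 4.3.3) with a mean for each group, moderated statistics and Benjamini-Hochberg adjustment over all genes, and adjusted p under 0.05 was called. The fit was tested on simulated data with noise drawn independently for each gene and array. Those data held no shifts of whole arrays, so the test could not show how such shifts affect the calls. Every member could be named, and in each comparison and branch the called members with the 3 highest and 3 lowest log2 fold changes were given on every array. Of each other list up to 2 genes were named at either end of the moderated statistic. The members and lists were chosen with earlier results of these data known. Alternatives were other normalizations, the array median as a covariate, a filter on low levels, only the groups compared, pooled controls, the mean over probe sets, a replicate block and leaving out arrays. Promoter windows and gene positions come from RefSeq, GRCm38.p6.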

Additional observations from a re-analysis of the deposited data

Results flagged for a closer look

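Single arrays stood far from the rest of their group for 2 of 72 groups of values checked, where chance gives about 1 in 20. Only the groups with 4 arrays, the Rbp2 knockout and the double knockout, were checked. Arrays of wt, RIP-Cre and the Men1 knockout were not. Msmo1 read 10.51 on Rbp2 knockout array 1, beside 10.04 to 10.08 on the other 3. Scap read 9.84 on double-knockout array 3, apart from the other 3 arrays of the double knockout.

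The effect of Rbp2 loss differed between Men1 knockout and RIP-Cre islets, by limma's interaction term, for Scd2 (-1.09), Elovl6 (-0.97), Ebp (-0.91), Fads1 (-0.90) and Acsl4 (-0.89). Each call ended without 1 or another array.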

How the results depend on the processing

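No called gene changed direction under the alternatives run. Values near 0 did: the sterol median of the double against the Men1 knockout went from -0.04 to 0.02 with the array median as a covariate, and Mvd, not called, went from -0.12 in the Men1 knockout to 0.24 in that fit and 0.09 without the 3 controls of high median. With the array median as a covariate the sterol calls went to 0 in the Men1 knockout, 0 in the Rbp2 knockout, 0 in the double knockout and 0 in the interaction, and the fatty acid calls to 5, 1, 2 and 0, with 2 in the double knockout against the Rbp2 knockout. Cyclic loess gave 3 sterol and 3 fatty acid calls in the Rbp2 knockout and 2 fatty acid calls in the double knockout against the Rbp2 knockout. Quantile normalization gave 0 sterol calls in the interaction and 0 fatty acid calls in the double knockout against the Men1 knockout. The filter on low levels gave 2 sterol calls in the interaction and 2 fatty acid calls against the Rbp2 knockout. Fitting only the groups compared gave 2 sterol calls in the interaction, 3 fatty acid calls in the Rbp2 knockout and 2 against the Rbp2 knockout. Pooling wt with RIP-Cre gave 12 sterol and 8 fatty acid calls in the Rbp2 knockout and 6 sterol calls in the interaction. Without the 3 controls of high median there were 3 sterol and 2 fatty acid calls in the Rbp2 knockout, 0 and 0 in the interaction, and 2 fatty acid calls against the Rbp2 knockout. In that fit 2.38% of all genes were called in the Rbp2 knockout and 0.241% in the interaction. The cause of these moves was not tested. Shares of all genes called are not given here for quantile normalization, the filter, the groups compared alone or pooled controls. Nor are they given for the replicate block or for single arrays left out. Counts in those fits may have moved together with the calls over all genes.

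Leaving out 1 array at a time gave 9 to 13 sterol calls in the Men1 knockout, 1 to 8 in the Rbp2 knockout, 9 to 12 in the double knockout, 0 to 0 against the Men1 knockout, 0 to 1 against the Rbp2 knockout and 0 to 2 in the interaction. For the fatty acid genes the ranges were 10 to 11, 2 to 5, 9 to 10, 0 to 1, 1 to 2 and 0 to 5, and RIP-Cre against wt gave 0 to 0 for both.

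Repeat numbers recur between groups, but the labels do not tie same-numbered arrays together, so they were not taken as pairs. Correlations of same-numbered arrays, as deviations from group means, ran from -0.298 to 0.449. Those of array 3 among wt, RIP-Cre, the Rbp2 knockout and the double knockout were all positive, from 0.216 to 0.449. Differently numbered arrays were not correlated, so whether equal numbers share a batch was not tested. With the replicate block the sterol calls were 12 in the Men1 knockout, 5 in the Rbp2 knockout, 11 in the double knockout and 2 in the interaction, and the fatty acid calls 10, 4 and 9 in the knockouts.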
